A study of Mus musculus with 9 samples.

Results

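The simple and basal keratins were described in D2.0R cells, a mouse mammary tumour line, through 8 genes chosen by name: Krt7, Krt8, Krt18 and Krt19 as luminal keratins, Krt5, Krt14 and Krt17 as basal keratins, and Krt80, which belongs to neither class. They are 8 of the 23309 genes listed in the deposited files. Only 5 of them (Krt7, Krt8, Krt14, Krt18 and Krt80) averaged 1 FPKM or more across all libraries (9) and so were among the 10497 genes tested. FPKM is a count of sequenced fragments scaled by transcript length and by the fragments mapped in the library, so levels of different genes can be compared within a library. Among these 8 genes, luminal keratins took nearly all of the FPKM, and nearly all of that was Krt8 and Krt18. Of the FPKM of all listed keratin genes, Krt8 and Krt18 took 79.4% in the lowest library, at BME day 1, and 94.1% in the highest, at BME day 5. Krt8 and Krt18 were among the strongly expressed genes in every culture, and Krt5 and Krt19 were close to 0 throughout.

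D2.0R cells derive from a hyperplastic alveolar nodule of the mouse mammary gland, and the study compared their quiescent state on basement membrane extract (BME, sold as Cultrex) with growth after type I collagen (COL) is added to that matrix. RNA sequencing covered 3 groups of 3 cultures, named BME day 1, BME day 5 and BME + COL day 5, with replicates a, b and c in each group. All cultures used low-glucose DMEM with 2% FBS, at 37 °C and 5% CO2, with 2% Cultrex added for BME and Cultrex plus COL for BME + COL. The 3 cultures of a group were biological replicates of a single cell line, so the spread between them is that between cultures.

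Keratins are the intermediate filament proteins of epithelial cells. A filament forms from pairs of a type I and a type II keratin, and an unpaired chain is usually degraded. Krt8 (type II) and Krt18 (type I) are the standard pair of simple epithelia such as the luminal layer of the mammary gland, whereas Krt5 and Krt14 are the pair of the basal layer, where myoepithelial cells lie.

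Read depth came to between 7.21 and 9.37 gigabases of sequence over the listed transcripts per library. One library stood apart: in BME day 5 replicate b, log2 levels deviated from the gene means by -0.27 in the median gene, and values without this library are therefore given beside the results. The intervals that Cufflinks attached to single values lay within 1.06% of the level for Krt8 and 1.28% for Krt18, between 4.57% and 7.27% for Krt14, between 4.21% and 11.6% for Krt80 and between 7.05% and 20.4% for Krt7. For Krt19 and Krt5 they were at least as wide as the level itself wherever it was above 0, so levels of these genes could not be resolved at this depth.

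On the mm9 build, 5 of the 8 genes lie on chromosome 15 and 3 on chromosome 11. Chromosome 15 carries Krt80 (chr15:101180002-101200556, minus strand), Krt7 (chr15:101242834-101258237, plus strand), Krt5 (chr15:101537501-101543322, minus strand), Krt8 (chr15:101827142-101834773, minus strand) and Krt18 (chr15:101858647-101862457, plus strand). The others are Krt19 (chr11:100002126-100007233), Krt14 (chr11:100064476-100068824) and Krt17 (chr11:100117531-100122303), all on the minus strand of chromosome 11. Krt18 is the exception to the usual order of the clusters, being a type I gene at the end of the type II cluster. It starts 23874 bases from the start of Krt8, the genes point away from each other, and no listed gene lies wholly between them. The keratin genes listed on chromosome 15 numbered 25 over 682 kilobases and those on chromosome 11 numbered 27 over 1037 kilobases, of which 5 and 6 were tested.

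The 150 bases before each start were read from the mm9 genome for the 5 tested members. In the comparison at day 5 that follows, 4 of them, all on chromosome 15, were lower on BME than on BME + COL. So were 45.3% of all tested genes. Of the tested keratins on chromosome 11, Krt12, Krt13, Krt15 and Krt20 were lower as well, while Krt14 and Krt16 were not called. Each window runs 5′ to 3′ on the strand of its gene. Capitals mark matches, on either strand, to a TATA box (TATAAA), a GC box (GGGCGG), an AP-1 site (TGANTCA) or an E-box (CAGGTG), and no matches of different motifs overlapped. Of 25832 windows of this length, 7.44% held the TATA box, 37.3% the GC box, 3.86% the AP-1 site and 10.3% the E-box.
Krt8, chr15:101834774-101834923, minus strand: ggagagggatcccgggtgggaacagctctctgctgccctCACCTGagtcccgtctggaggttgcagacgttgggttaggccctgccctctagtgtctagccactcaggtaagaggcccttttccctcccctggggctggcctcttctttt
Krt18, chr15:101858497-101858646, plus strand: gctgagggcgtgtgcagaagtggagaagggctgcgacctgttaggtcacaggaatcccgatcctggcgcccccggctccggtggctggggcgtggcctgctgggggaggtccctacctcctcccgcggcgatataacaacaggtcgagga
Krt7, chr15:101242684-101242833, plus strand: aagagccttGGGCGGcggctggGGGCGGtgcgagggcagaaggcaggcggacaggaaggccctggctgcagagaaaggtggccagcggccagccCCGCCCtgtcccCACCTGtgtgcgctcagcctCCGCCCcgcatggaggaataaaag
Krt80, chr15:101200557-101200706, minus strand: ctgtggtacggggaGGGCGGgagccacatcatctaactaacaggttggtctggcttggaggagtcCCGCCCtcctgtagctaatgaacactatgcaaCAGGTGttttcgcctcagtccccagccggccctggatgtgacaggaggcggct
Krt14, chr11:100068825-100068974, minus strand: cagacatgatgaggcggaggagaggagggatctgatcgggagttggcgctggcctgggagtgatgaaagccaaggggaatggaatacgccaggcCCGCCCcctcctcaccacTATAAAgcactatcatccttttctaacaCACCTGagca

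The windows of Krt8 and Krt18, the 2 most abundant keratins, had little in common by this search: Krt8 held 1 E-box and Krt18 held none of the 4 motifs. Krt7 held 4 GC boxes and an E-box, and Krt80 held 2 GC boxes and an E-box. Krt14 was the only one of the 5 with the TATA box, 38 to 33 bases before its start, beside a GC box and an E-box. A match describes letters in a window and is neither a known binding site nor a cause of any change. The last 100 bases of the windows of Krt7, Krt8 and Krt18 were also present in the RefSeq promoter windows of GRCm38.p6, whereas the RefSeq window of Krt14 did not hold them.

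Sequence shared with other places in the genome limits some of the levels. Of the 31-base words of the Krt8 transcript, 66.5% also occurred outside the gene, 1178 of 1181 of them on chromosome 7. The share was 29.6% for Krt14, with 303 words in Krt16 and 177 in Krt17, and 12.4% for Krt18. It was 1.22% for Krt7 and 0.229% for Krt80. How reads that match several places were divided is not given in the sources used here, so the split between Krt14, Krt16 and Krt17, and the level of Krt8, carry this uncertainty.

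Keratin messages were most abundant on BME + COL and least abundant on BME at day 5. Summed over all listed keratin genes, their level was 1751 to 1965 FPKM on BME at day 1, 805 to 1249 FPKM on BME at day 5 and 2610 to 2726 FPKM on BME + COL at day 5. The 3 ranges did not overlap, and BME day 5 replicate b held the lowest value. As a share of all FPKM in a library, keratins took 0.477% to 0.559%, 0.28% to 0.343% and 0.624% to 0.646% in the same order. In bulk samples fewer keratin-expressing cells and less keratin RNA per cell cannot be told apart.

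Krt8 and Krt18 made up most of this pool. Their summed share of keratin FPKM was 79.4% to 81.3% on BME at day 1, 89.6% to 94.1% in the BME day 5 cultures and 88.3% to 88.5% on BME + COL. Krt16, a type I keratin outside the chosen set, was at its highest at day 1, and its levels are given further on. Among the 8 genes themselves, luminal keratins took 97.4% to 98.3% of the FPKM in every library. Basal keratins took 1.43% to 1.65% at day 1, 1.2% to 2.19% in the BME day 5 cultures and 0.668% to 0.775% on BME + COL, where the 3 libraries lay under all others.

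**Figure D1:**
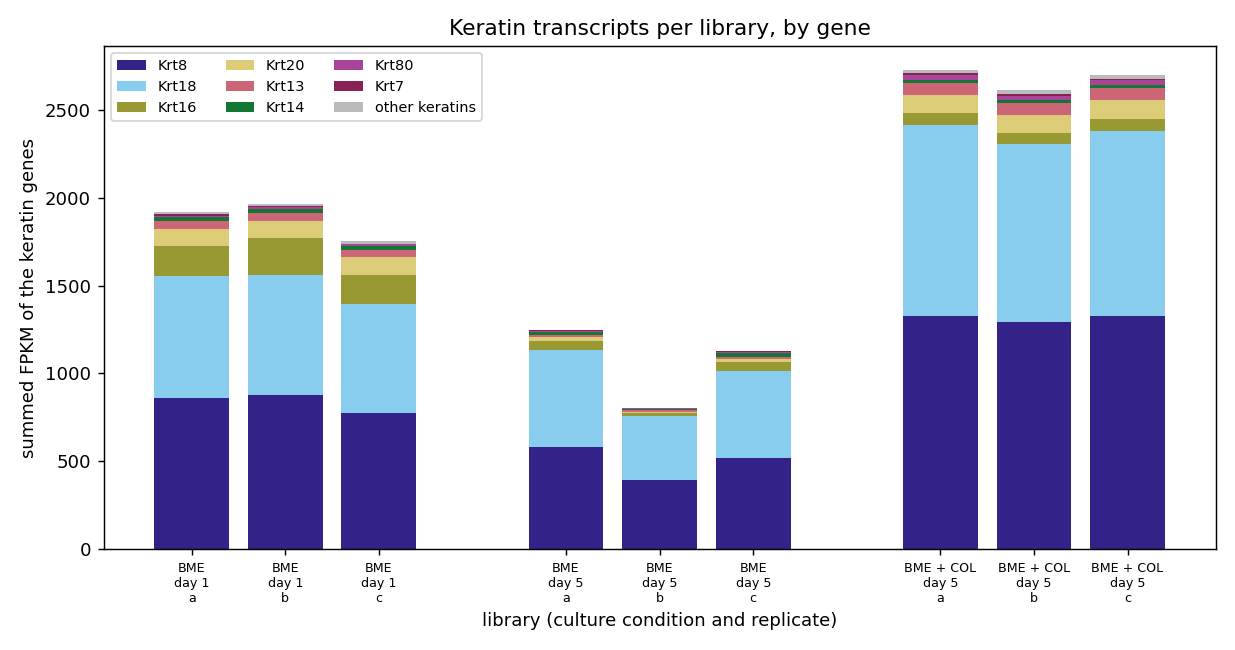
Stacked bars give the summed FPKM of all keratin genes in each of the 9 libraries, with the 8 most abundant genes in colour. Krt8 and Krt18 fill most of every bar, and the bars of BME day 5 (805 to 1249 FPKM) are the lowest and those of BME + COL day 5 (2610 to 2726 FPKM) the highest.

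In order of level among the 8 members, Krt8 and Krt18 came first in every group, followed by Krt14, Krt80 and Krt7 on BME and by Krt80, Krt14 and Krt7 on BME + COL, with Krt17, Krt19 and Krt5 last. Krt16, outside this set, averaged more than Krt14 in every group. Krt8 lay above Krt18 in each of the 9 libraries. In the BME day 5 cultures the gap between their means, 500 and 468 FPKM, was less than the spread between replicates. Within each of these libraries, however, the ratio of Krt8 to Krt18 had a lower bound of 1.04 to 1.07 from the Cufflinks intervals. Whether these intervals allow for the 66.5% of Krt8 words that also occur elsewhere is not known, so so small a margin is not settled by them. Library by library, Krt80 lay above Krt7 in all day 1 cultures and in replicates a and b of BME day 5, but below it in replicate c. The means of Krt80 and Krt7 were within the spread between cultures in both BME groups (8.53 ± 1.06 against 6.8 ± 2.09 FPKM at day 1, and 4.43 ± 1.2 against 3.05 ± 1.65 FPKM at day 5, SD, n = 3) and apart on BME + COL (26.1 ± 1.84 against 10.7 ± 0.25 FPKM).

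Levels were compared by limma on log2(FPKM + 0.1) over all 9 libraries, and a difference with an adjusted p under 0.05 counts as a call. Folds are ratios of the group means of FPKM, and log2 differences, with 0.1 FPKM added, understate the change of genes with few FPKM. The 3 comparisons share libraries: BME day 5, BME + COL day 5 and BME day 1 each enter 2 of them, so their results are not independent of each other. Between BME and BME + COL at day 5, the comparison of the quiescent with the growing state, 4 of the 5 tested members were lower on BME, none was higher, and Krt14 was not called. Of all 10497 genes, 75.6% were called here, 45.3% lower and 30.3% higher, so a lower call was common. In counts these were 4756 lower and 3179 higher, but 3327 and 4858 after scaling to TPM. The FPKM of the groups did not overlap for these 4 members, all lower on BME, as for 48.1% of all genes in that direction and 32.1% in the other. The median difference was -1.41 over the 5 tested members and -0.18 over all tested genes on the log2 scale, and the latter moved to 0.16 as TPM.

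Krt8, the type II keratin of simple epithelia, had 859, 878 and 778 FPKM in replicates a, b and c on BME at day 1, 582, 395 and 521 FPKM on BME at day 5, and 1324, 1291 and 1324 FPKM on BME + COL at day 5. No library of one group overlapped another, and the BME + COL cultures were the closest together. The means were 838 ± 53.3, 500 ± 95.4 and 1313 ± 19.3 FPKM (SD, n = 3). At day 5 Krt8 was 2.63-fold higher with COL, a log2 difference of -1.41 for BME minus BME + COL (standard error 0.14, adjusted p = 1.29e-05 by limma, 95% interval -1.72 to -1.11). Without BME day 5 replicate b the difference was -1.25, and as TPM it was -1.07. The smallest difference of its alternatives, -0.77, came after quantile normalization, which sets every library to the same distribution of levels.

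Krt18, its type I partner, had 697, 682 and 619 FPKM on BME at day 1, 550 (replicate a), 362 and 492 FPKM on BME at day 5, and 1088, 1013 and 1055 FPKM on BME + COL. The order of the groups was that of Krt8, again with no overlap. Means were 666 ± 41.2, 468 ± 95.9 and 1052 ± 37.5 FPKM (SD, n = 3). Krt18 was 2.25-fold higher with COL at day 5, with a log2 difference of -1.19 (standard error 0.14, adjusted p = 5.29e-05 by limma) that became -1.02 without BME day 5 replicate b and -0.58 after quantile normalization.

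Krt7, a type II keratin of simple and glandular epithelia, was present at 0.312% to 0.951% of the level of Krt8 in the same library. Its values were 7.62, 8.35 and 4.42 FPKM on BME at day 1, 3.48, 1.23 and 4.45 FPKM on BME at day 5, and 10.4, 10.6 and 10.9 FPKM on BME + COL. The BME + COL cultures lay above all others, while replicate c of BME day 1 was level with replicate c of BME day 5. With COL it was 3.49-fold higher at day 5 (log2 difference -1.95, standard error 0.40, adjusted p = 0.00163 by limma). Replicate b of BME day 5 was the lowest library, and without it the difference was -1.41.

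Krt80, a type II keratin of epithelia in general, differed the most of the 5 between the day 5 groups. It had 8.85, 9.38 and 7.34 FPKM on BME at day 1, 5.82, 3.63 and 3.86 FPKM on BME at day 5, and 27.2, 27.2 and 24 FPKM on BME + COL. The groups did not overlap. The mean of 26.1 ± 1.84 FPKM on BME + COL was 5.89-fold that of 4.43 ± 1.2 FPKM on BME at day 5 (SD, n = 3; log2 difference -2.56, standard error 0.17, adjusted p = 1.38e-06 by limma), and the difference without BME day 5 replicate b was -2.44. Relative to Krt8 within the same library, Krt80 stood at 0.944% to 1.07% on BME at day 1, 0.74% to 0.999% in the BME day 5 cultures and 1.81% to 2.11% on BME + COL.

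Krt14, the type I keratin of the basal layer, was not called between the day 5 groups, in which Krt8, Krt18 and Krt7 were. It had 22.4, 24.4 and 23 FPKM on BME at day 1, 16.7, 9.26 and 22.8 FPKM on BME at day 5, and 16.2, 16 and 18.7 FPKM on BME + COL. Of the BME day 5 cultures, replicate c lay at the lower end of the day 1 range and above the BME + COL cultures, replicate a among the latter, and replicate b below all others. At day 5 the difference between BME and BME + COL was -0.15 in log2 units (standard error 0.26, adjusted p = 0.605 by limma), with a 95% interval of -0.74 to 0.43. Its sign depended on the scaling and on a single library: the difference was 0.20 without BME day 5 replicate b, 0.19 as TPM, 0.03 with median-ratio scaling and 0.10 with quantile normalization, none of them called. Relative to Krt18 in the same library, Krt14 stood at 3.22% to 3.71% on BME at day 1, 2.56% to 4.64% in the BME day 5 cultures and 1.49% to 1.77% on BME + COL, so its share overlapped between the BME groups and was lower on BME + COL.

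**Figure D2:**
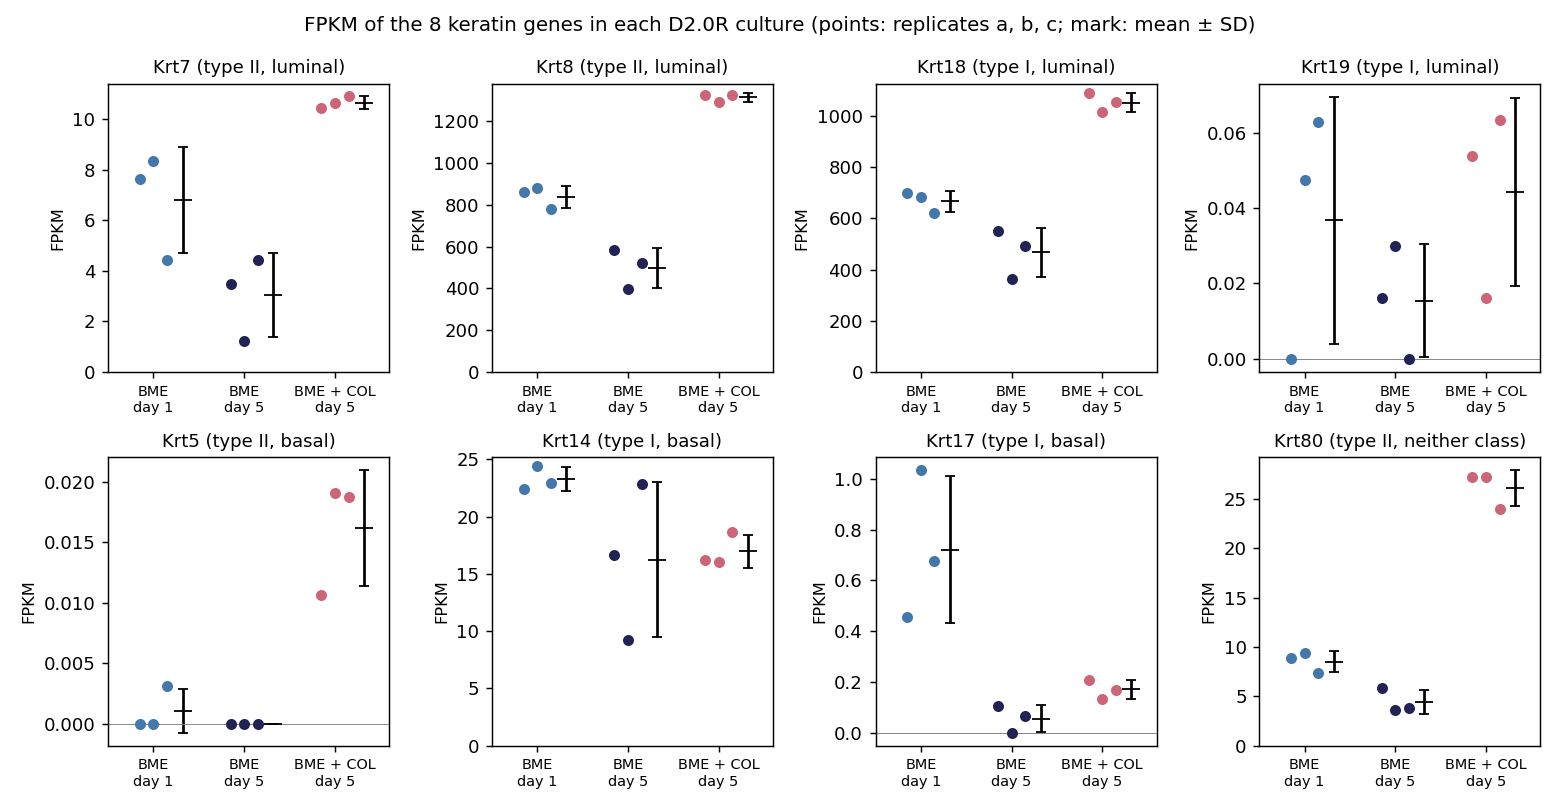
Each panel shows the FPKM of 1 keratin gene in the 9 libraries, with points for replicates a, b and c and a mark for the mean ± SD of each group; panels have their own linear scales. Krt8, Krt18, Krt7 and Krt80 are highest in the 3 BME + COL cultures, whereas Krt14 overlaps between the day 5 groups and Krt5 stays at or under 0.019 FPKM.

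The 3 members under the filter were nearly silent. Krt17, a type I keratin of basal and stressed epithelium, had 0.457, 1.03 and 0.676 FPKM on BME at day 1, 0.104, 0 and 0.0638 FPKM on BME at day 5, and 0.209, 0.135 and 0.17 FPKM on BME + COL. It was highest in the day 1 cultures, without overlap. In a fit of all 18136 genes with no filter, Krt17 was lower on BME at day 5 than at day 1 (log2 difference -2.40, standard error 0.32, adjusted p = 0.00355 by limma) and lower on BME + COL than at day 1 (-1.55, adjusted p = 0.0049 by limma), at levels where a single value had an interval of 23.6% to 107% to either side.

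Krt19, a type I keratin of luminal and ductal epithelium, was at most 0.0632 FPKM in any library and listed at 0 in 2 of the 9. Krt5, the type II partner of Krt14, was listed at 0 in 5 libraries, including all 3 of BME day 5. Its highest values were 0.0106, 0.019 and 0.0188 FPKM on BME + COL. The fit without a filter called Krt5 lower on BME than on BME + COL at day 5 (-0.21, adjusted p = 0.00183 by limma), at levels whose interval exceeded the level itself. Krt14 was therefore measured at 9.26 to 24.4 FPKM in cells in which its usual partner was close to 0.

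From day 1 to day 5 on BME, 4 members (Krt8, Krt18, Krt7 and Krt80) were called lower, none was called higher, and Krt14 was not called, with 31.3% of all genes called, 22.2% lower and 9.09% higher. The 954 higher and 2327 lower genes became 1967 and 1839 after median-ratio scaling. Groups that did not overlap numbered 3 of the 5 members, all lower, against 37.1% of all genes lower and 12.8% higher. The members' median difference was -0.76, against -0.15 for all tested genes. Krt8, at 838 FPKM on average at day 1, fell by 0.76 in log2 units (adjusted p = 0.00471 by limma, standard error 0.14), and by 0.60 without BME day 5 replicate b. Krt80 fell by 0.95 (standard error 0.17, adjusted p = 0.00458 by limma), and by 0.83 without that library.

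The falls of Krt18 and Krt7 were less firm. Krt18 fell by 0.53 in log2 units (adjusted p = 0.0238 by limma, standard error 0.14), with no overlap between the groups, and by 0.36 without BME day 5 replicate b. It was no longer called without BME day 1 replicate a (adjusted p = 0.0807 by limma) or replicate b (0.0808), nor with only the 6 libraries compared (0.0941), and over its 21 alternatives the adjusted p ran from 0.00521 to 0.0941. For Krt7 the groups overlapped, the fall of 1.26 had a standard error of 0.40 (adjusted p = 0.0427 by limma), and the call was lost in 10 of 21 alternatives, with an adjusted p of 0.0286 to 0.134. Without BME day 5 replicate b the fall was 0.72, and it was not called without BME day 1 replicate a (adjusted p = 0.118) or b (0.134), or without any 1 of the BME + COL cultures.

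Krt14 differed by -0.61 between BME day 5 and BME day 1 (standard error 0.26, adjusted p = 0.0965 by limma, 95% interval -1.19 to -0.02). Replicate c of BME day 5, at 22.8 FPKM, lay within the day 1 range of 22.4 to 24.4 FPKM, and replicates a and b lay below it. Of 21 alternatives the difference was called in 1, without that replicate c (-0.90, adjusted p = 0.0253 by limma), and was -0.25 without replicate b.

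Compared with the BME cultures at day 1, those on BME + COL at day 5 had higher Krt8, Krt18 and Krt80, while Krt7 and Krt14 were not called. Matrix and time differ together here, since no BME + COL culture was sequenced at day 1, and their parts cannot be told apart. Of all genes, 66.0% were called here, 34.2% higher and 31.8% lower, or 3588 and 3343 genes (2638 and 4870 as TPM). The median over the 5 members was 0.66, against 0.03 for all genes, which moved to -0.19 as TPM. Krt8 was higher by 0.65 in log2 units (adjusted p = 0.00226 by limma, standard error 0.14), or 1.57-fold, but by 0.24 after quantile normalization (adjusted p = 0.0105). Krt18 was higher by 0.66 (standard error 0.14, adjusted p = 0.00281 by limma), but by 0.19 and not called after quantile normalization (adjusted p = 0.0557). Krt80 was higher by 1.61 (standard error 0.17, adjusted p = 3.66e-05 by limma), or 3.06-fold.

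Krt7 lay higher in all 3 BME + COL cultures than in any day 1 culture, yet its difference of 0.69 was not called (standard error 0.40, adjusted p = 0.157 by limma). It was called without BME day 5 replicate b (adjusted p = 0.0154) and with only the 6 libraries compared (0.0256). Krt14 showed the opposite order, with all 3 BME + COL cultures (16 to 18.7 FPKM) under all day 1 cultures (22.4 to 24.4 FPKM). Its difference of -0.45 was not called (standard error 0.26, adjusted p = 0.149 by limma), but was without BME day 5 replicate b (adjusted p = 0.00508), with only the 6 libraries compared (0.000836), as TPM (-0.68, 0.0143) and after quantile normalization (-0.58, 0.0471). Of the 5 members 4 were higher and 1 lower on BME + COL without overlap, against 41.6% and 38.3% of all genes.

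**Figure D3:**
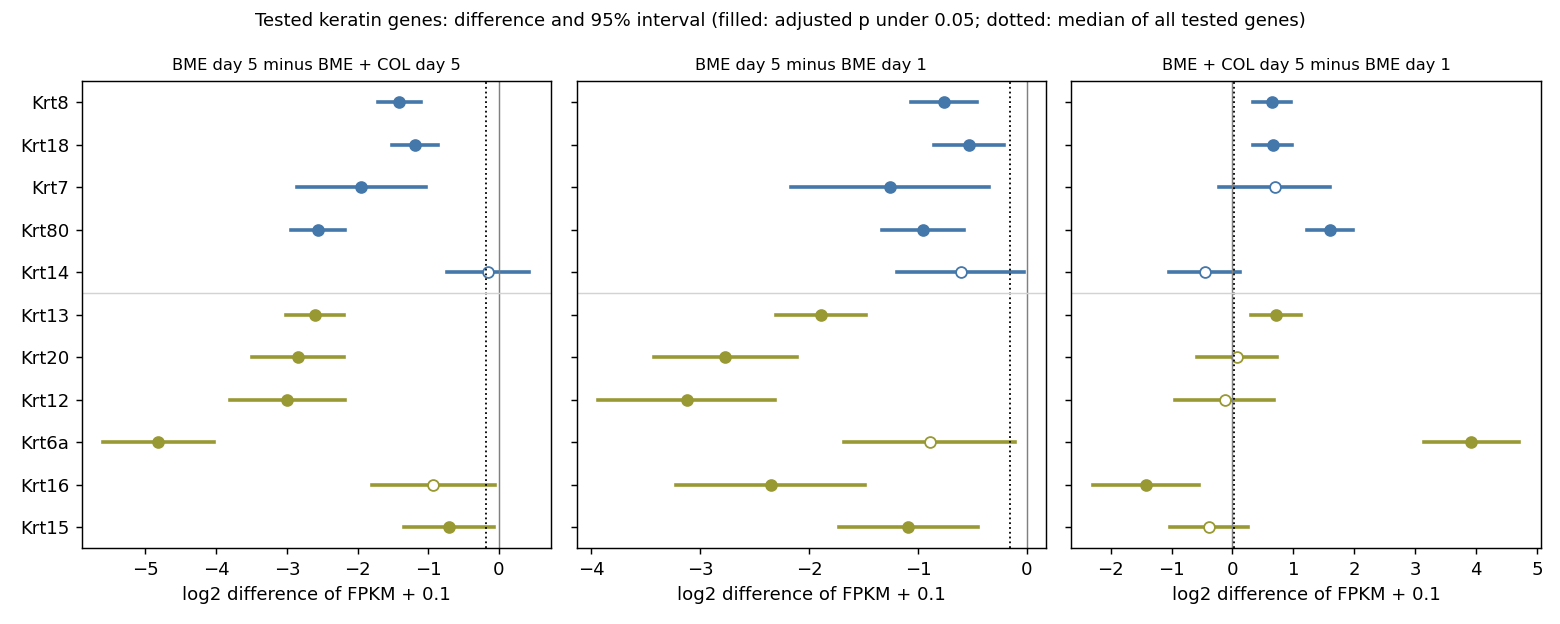
Points give the log2 difference of FPKM + 0.1 with its 95% interval for the 5 tested members (upper rows) and 6 other tested keratins (lower rows) in the 3 comparisons; filled points are called at an adjusted p under 0.05 and the dotted line is the median of all tested genes. Krt8, Krt18, Krt7 and Krt80 lie left of 0 in the first 2 panels, from -0.53 to -2.56, and the interval of Krt14 crosses 0 in the first panel.

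The balance of Krt8 and Krt18 was also read within each library, where scaling between libraries cancels. The ratio of Krt8 to Krt18 FPKM was 1.23, 1.29 and 1.26 on BME at day 1, 1.06, 1.09 and 1.06 on BME at day 5, and 1.22, 1.27 and 1.26 on BME + COL. The 3 BME day 5 libraries lay below the other 6, replicate b among them. The mean ratio was 1.07 on BME at day 5, 1.25 on BME + COL and 1.26 at day 1, and the two-sided exact permutation p was 0.1 for BME day 5 against either other group, the smallest that 3 against 3 libraries allow, so this test could not reach 0.05 for any difference. For BME + COL against day 1 it was 0.8. The ratio was chosen after its values were seen, and Krt8 is the member with the most sequence shared with other places.

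**Figure D4:**
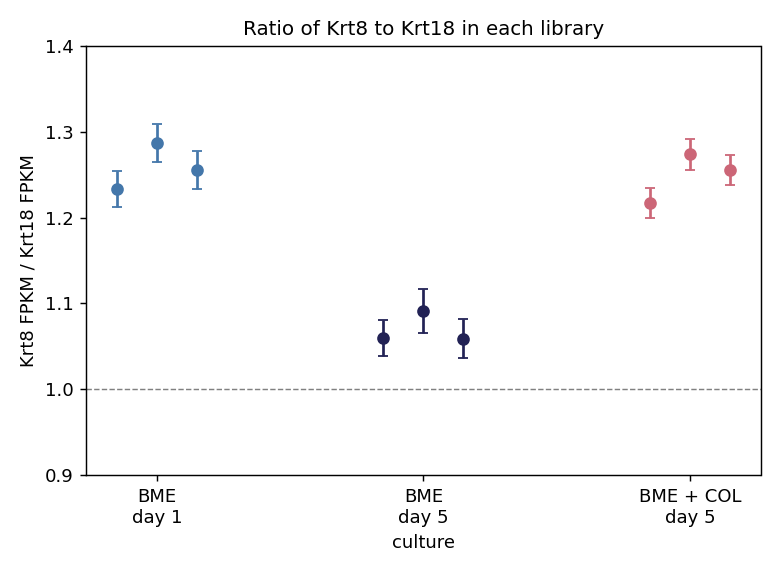
Points give Krt8 FPKM divided by Krt18 FPKM in each library, and bars run between the outer bounds set by the Cufflinks intervals of both genes; the vertical axis starts at 0.9. The 3 BME day 5 libraries lie between 1.06 and 1.09 and the other 6 between 1.22 and 1.29.

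Over the 8 members the summed type II level was 1.22 to 1.27 times the type I level at day 1, 1.03 to 1.08 times on BME at day 5 and 1.23 to 1.29 times on BME + COL. With the 6 other tested keratins added, all of them type I but Krt6a, the ratio was 0.823 to 0.844, 0.882 to 0.989 and 1.01 to 1.05. The order of the groups was then another one. The added type I keratins Krt16, Krt20 and Krt13 averaged 182, 98.1 and 41.9 FPKM at day 1. They averaged 40.4, 15.6 and 11.6 FPKM on BME at day 5, and 67.5, 104 and 68.7 FPKM on BME + COL. Against vimentin (Vim), the intermediate filament protein of mesenchymal cells, which had 755 ± 46.5, 778 ± 141 and 1258 ± 31.5 FPKM (SD, n = 3), Krt8 stood at 1.08 to 1.15 times on BME at day 1, 0.601 to 0.684 times on BME at day 5 and 1.02 to 1.06 times on BME + COL.

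Of the other keratin genes, 44 were listed and 6 were tested, and 5 of the 6 were lower on BME than on BME + COL at day 5 (45.3% of all genes) and 5 lower on BME at day 5 than at day 1 (22.2% of all genes). Krt16 is a type I keratin of activated epithelium. Of its 31-base words 741 (48.3%) also occurred outside the gene, 303 of them in Krt14, so its level carries the same uncertainty. Krt16 was highest at day 1 (171, 211 and 165 FPKM), with 50.6, 16 and 54.6 FPKM on BME at day 5 and 67, 65.2 and 70.3 FPKM on BME + COL. It fell by 2.35 from day 1 to day 5 on BME (adjusted p = 0.0035 by limma) and was lower by 1.42 on BME + COL than at day 1 (adjusted p = 0.00934), so it did not have the order of Krt18, of which it was 24.5% to 30.9% at day 1 and at most 11.1% at day 5. Krt20, a type I keratin of intestinal and urothelial surfaces, had 98.1 ± 1.59, 15.6 ± 7.15 and 104 ± 0.734 FPKM (SD, n = 3), and fell by 2.77 from day 1 to day 5 on BME (adjusted p = 0.000479 by limma). Krt13, a type I keratin of stratified mucosa, had 41.9 ± 1.03, 11.6 ± 3.4 and 68.7 ± 3.13 FPKM.

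Krt6a, a type II keratin of injured epithelium, had the largest difference of the 11 tested keratins: 0.469 ± 0.31 FPKM at day 1, 0.189 ± 0.0825 FPKM on BME at day 5 and 7.81 ± 0.405 FPKM on BME + COL (log2 difference at day 5 -4.82, adjusted p = 2.44e-06 by limma). Both BME groups averaged under 1 FPKM, so Krt6a met the filter only through BME + COL, where it was high. Its rank, and its place among the 6 tested, carry that selection. Of its 31-base words 48.2% occurred elsewhere. Krt12, the type I keratin of the cornea, stood at 7.54, 0.893 and 6.85 FPKM on average, and Krt15, a basal type I keratin, at 2.45, 1.11 and 1.79 FPKM. Both were lower on BME at day 5 than at day 1 (Krt12 -3.12, adjusted p = 0.00071, and Krt15 -1.09, adjusted p = 0.0208 by limma).

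Among 7630 genes averaging 5 FPKM or more, the log2 levels of Krt8 over the 9 libraries were most like those of Ppp1r2 (Pearson r = 0.998), Smyd5 (0.997) and Jmjd4 (0.997). For Krt18 they were most like Gm5506 (0.999), Fabp5 (0.998) and Eno1 (0.997), for Krt80 Trmt5 (0.997), Tnk2 (0.997) and Tspan9 (0.996), and for Krt7 Eef1b2 (0.988), Rpl10 (0.985) and Rps24 (0.985). These figures describe 9 libraries in 3 groups and are not specific: 2549 genes had r over 0.9 with Krt8, 2744 with Krt18, 2402 with Krt80 and 994 with Krt7. Krt14 had 36, with Wbp5 (0.957), Crip1 (0.954) and Mtch2 (0.948) first. Between members r was 0.992 for Krt8 and Krt18, 0.971 for Krt8 and Krt80, 0.32 for Krt8 and Krt14 and 0.092 for Krt14 and Krt80.

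The keratins were read against other markers of the mammary epithelium. Of 24 luminal markers 9 (Cd24a, Cdh1, Areg, Aldh1a3, Gata3, Foxa1, Prom1, Epcam and Ly6a) reached 1 FPKM in any library and 3 (Pgr, Csn2 and Wap) were at 0 in all. Of 17 basal and myoepithelial markers 6 (Sparc, Itgb1, Nrg1, Egfr, Vcam1 and Acta2) reached 1 FPKM. The epithelial adhesion gene Epcam was at most 1.59 FPKM, whereas Cdh1, the adherens junction cadherin, reached 38 FPKM and Trp63, the basal transcription factor, was under 1 FPKM in every library. Summed luminal markers ran from 272 to 297 FPKM at day 1, 188 to 232 FPKM on BME at day 5 and 181 to 188 FPKM on BME + COL, and most of each sum was 1 gene, Cd24a, which averaged 197, 168 and 96 FPKM. Areg, an EGF receptor ligand, averaged 12.3 FPKM on BME at day 5 and 40.6 FPKM on BME + COL, and Cdh1 averaged 34.3, 16.4 and 31.1 FPKM over the 3 groups. Summed basal markers, mostly Itgb1 and Sparc, ran from 824 to 862, 698 to 816 and 925 to 946 FPKM.

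Markers of other cell types moved between the groups as well, and their part in the keratin differences was not tested. Of 12 fibroblast markers, 6 reached 1 FPKM (Postn, Pdgfrb, Pdgfra, Col1a1, Twist1 and Twist2), Lum was at 0 and Dcn near 0, and their sum was 42.8 to 52.5 FPKM at day 1, 70.9 to 83.4 FPKM on BME at day 5 and 22.6 to 25.1 FPKM on BME + COL. Among 11 haematopoietic markers in the files Cd68 and Cd14 reached 1 FPKM while Ptprc, the pan-leukocyte gene, did not, with sums of 6.93 to 10.2, 5.72 to 6.91 and 4.88 to 5.12 FPKM. Flt1 alone of 10 endothelial markers reached 1 FPKM, with Pecam1 near 0 and sums of 14.6 to 17.5, 10.6 to 13 and 17.2 to 18.9 FPKM.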

How the data were processed

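RNA from 9 cultures of D2.0R cells (3 groups of 3 biological replicates) was sequenced by the authors on an Illumina instrument with a directional library kit. The builds mm9 and NCBIM37 appear in the submitters' processing notes, as do TopHat2 2.0.8, Trimmomatic 0.30, CASAVA 1.8.4 and Partek. The deposited values are FPKM per RefSeq transcript, written by Cufflinks for the authors, whose version is not given in the sources used here. The study's own test ran on alignments in Partek and could not be repeated on FPKM.

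FPKM of 30563 transcripts were summed by gene symbol (each keratin named here has 1 transcript), and genes averaging 1 FPKM or more were kept. The log2 of FPKM + 0.1 was fitted with limma 3.58.1 in R 4.3.3 (intensity trend, 3 group means, 6 residual degrees of freedom, two-sided, Benjamini-Hochberg over the 10497 genes). The fit was tested on simulated data. Fold changes are ratios of group means of FPKM. Ratios within a library were compared by exact permutation. Promoter windows and shared 31-base words were read from the NCBIM37 genome over 22 chromosomes, with Python 3.11.15, and drawings were made with matplotlib 3.10.9.

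The members and gene lists were chosen with earlier results of these data known. Genes to be named were all members, the tested other keratins, the 2 largest called rises and falls of each further list, and cell type markers over 1 FPKM. Not every called rise or fall under this rule is given in the text. Defining markers under 1 FPKM were named after their values were seen. Replicate letters were not stated to mark a shared day. The deviations of same-letter libraries correlated by -0.23 to 0.096 and those of different letters by -0.18 to 0.18. So few libraries cannot exclude a shared day, and the main fit did not pair the samples. Alternatives were other pseudocounts, filters, scalings and thresholds, a replicate block, the 6 libraries compared alone, and leaving out each library.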

Additional observations from a re-analysis of the deposited data

How the results depend on the processing

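Between BME and BME + COL at day 5, the calls and directions of Krt8, Krt18, Krt7 and Krt80 held in all 21 alternatives each. Their log2 differences ran from -1.53 to -0.77 for Krt8, -1.32 to -0.58 for Krt18, -2.30 to -1.41 for Krt7 and -2.77 to -2.23 for Krt80. Krt14 was not called in any, and its difference of -0.15 turned to 0.19 as TPM, 0.028 with median-ratio scaling, 0.10 with quantile normalization and 0.20 without BME day 5 replicate b (leaving out single libraries gave -0.44 to 0.20). The median of all tested genes was -0.18 in this comparison and 0.16 as TPM.

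From day 1 to day 5 on BME, 4 members were called lower, but 2 without short genes (under 300 nt), 2 with only the 6 libraries compared and 2 at an adjusted p under 0.01. Leaving out single libraries gave 2 to 5, the lowest when BME day 1 replicate a or b was left out and the highest without BME day 5 replicate c. Between BME + COL at day 5 and BME at day 1 no member was called lower, but 1 was with no filter (Krt17), and 1 as TPM, 1 after quantile normalization and 1 with only the 6 libraries compared (Krt14). Leaving out single libraries gave 0 to 1, the call coming without BME day 5 replicate b. The cause was not tested. The count of members called higher there ran from 2 (after quantile normalization, where Krt18 was lost) to 4.

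With a replicate block (4 residual degrees of freedom), 3 members were called lower from day 1 to day 5 on BME, since Krt7 was lost (adjusted p = 0.0605 by limma), and no other call of a member changed.

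Counts over all genes moved by over 1.5 times between BME day 5 and BME day 1. The 954 higher genes became 585 at a minimum mean of 5 FPKM, 1534 as TPM, 1967 after median-ratio scaling, 1903 after quantile normalization, 452 with only the 6 libraries, 412 at an adjusted p under 0.01 and 533 without BME day 1 replicate a or b. The 2327 lower genes became 1216 without short genes, 618 with only the 6 libraries, 635 at an adjusted p under 0.01, 1018, 1042 and 1433 without BME day 1 replicate a, b or c, and 1544 without BME + COL day 5 replicate a. In the other comparisons, the 3179 genes higher on BME than on BME + COL became 4858 as TPM and 1991 at a minimum mean of 5 FPKM, and the 3343 lower on BME + COL than at day 1 became 2169 at that minimum.

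The depth resolved Krt8, Krt18, Krt14, Krt80 and Krt7. For Krt5, Krt17 and Krt19, calls from the fit with no filter rest on values near 0.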

Other observations

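The other intermediate filament proteins were higher on BME + COL, as Krt8 and Krt18 were. All 5 that could be tested were lower on BME than on BME + COL at day 5 and higher on BME + COL than at day 1, with medians of -1.56 and 1.27 on the log2 scale. Of all tested genes, 45.3% were lower in the former comparison and 34.2% higher in the latter. From day 1 to day 5 on BME only Nes fell, by 0.97 (adjusted p = 0.0197 by limma). Nes, a filament protein of progenitor cells, had 14.3 ± 5.54 FPKM on BME at day 5 and 65.8 ± 1.57 FPKM on BME + COL (SD, n = 3), and Lmnb1, a nuclear lamin, had 6.17 ± 3.37 and 40.8 ± 0.609 FPKM, a log2 difference of -2.91 (adjusted p = 0.000106 by limma).

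Of 15 tested genes that anchor keratin filaments at desmosomes and hemidesmosomes, 6 were higher and 6 lower on BME than on BME + COL at day 5, against 30.3% and 45.3% of all genes. Perp, a desmosomal membrane protein, had 166 ± 16.2 FPKM on BME and 33.2 ± 1.16 FPKM on BME + COL (higher by 2.32, adjusted p = 3.8e-07 by limma), and desmoplakin (Dsp), which ties keratin to the desmosome, was higher on BME by 1.26. Pkp4, a plakophilin-like armadillo protein, differed by -1.34 on the log2 scale and the laminin receptor subunit Itga6 by -1.23, both lower on BME. From day 1 to day 5 on BME, 8 fell and 1, Perp, rose by 1.48, against 22.2% and 9.09% of all genes. Against day 1, BME + COL had 3 of the list higher, among them Pkp4 and Ppl, and 9 were lower, with Itgb4 (-1.37) and plakoglobin, Jup (-1.36), at the head (34.2% and 31.8% of all genes).

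The lists that follow are to be read against the same shares of all genes. These were 30.3% higher and 45.3% lower on BME than on BME + COL at day 5. From day 1 to day 5 on BME they were 9.09% higher and 22.2% lower, and on BME + COL against day 1 34.2% higher and 31.8% lower. Of 11 tested genes of keratin binding and turnover, 3 were higher on BME than on BME + COL at day 5 (Trim2 by 0.85 and Casp6, which cleaves keratins, by 0.51 among them) and 6 lower, led by the heat shock protein Hspb1 (-1.44) and the 14-3-3 protein Ywhae (-1.24). From day 1 to day 5 on BME 2 fell (Dnajb6 by 0.48, Ywhae by 0.47), and on BME + COL 5 were higher and 3 lower than at day 1. Of 13 tested regulators of keratins, on BME 5 stood higher than on BME + COL (Grhl1 by 1.85, Zeb1 by 1.31 among them) and 5 lower (Ets1 -0.75, Tfap2a -0.68 among them). Grhl1 averaged 1.3 FPKM at day 1, 1.76 FPKM on BME at day 5 and 0.411 FPKM on BME + COL. It met the filter only with BME day 5 counted, where it was highest. Sox9 and Klf4 were among 4 that fell on BME, by 0.88 and 0.72. On BME + COL 2 were higher than at day 1 (Tfap2a by 0.51, Klf5 by 0.38) and 5 lower, with Klf4 (-1.48) and Grhl1 (-1.42) first.

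Among luminal markers at day 5, Prom1 (2.69) and Gata3 (0.91) were higher on BME and Areg (-1.87) and Cdh1 (-0.92) lower, with 3 of 7 called in each direction. Prom1 averaged 1.12 FPKM at day 1, 2.14 FPKM on BME at day 5 and 0.242 FPKM on BME + COL. It met the filter only with BME day 5 counted, where it was highest. Between day 1 and day 5 on BME, Aldh1a3 fell by 1.34 and Cdh1 fell by 1.05. On BME + COL against day 1, where Krt8 and Krt18 were higher, 4 of the 7 luminal markers were lower and 0 higher. Their median difference was -0.71, against 0.03 for all tested genes. Among 6 basal markers, Vcam1 (1.18) was higher on BME than on BME + COL and Acta2 (-3.10) and Nrg1 (-2.08) were among 4 that were lower. Acta2 averaged 0.496 FPKM at day 1, 0.346 FPKM on BME at day 5 and 3.46 FPKM on BME + COL. It therefore met the filter only through the group in which it was high. On BME + COL against day 1, 3 of the 6 basal markers were higher and 1 was lower.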
